A study of Mus musculus with 9 samples.

Results

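The genes described here encode the machinery that copies DNA, and they were followed across mouse embryonic stem (ES) cells sorted by their level of Myc. They are 45 genes chosen by name for their known roles: the origin recognition complex, the licensing factors, the replicative helicase, the DNA polymerases, the sliding clamp with its loader, and the proteins that finish and package new DNA. All 45 were found by name, once each, among the 13499 genes of the authors' table. Per the labels, C57BL/6 ES cells (cells cultured from the early embryo that can give rise to every body tissue) were grown on gelatine with LIF, the cytokine that keeps them undifferentiated, and sorted on a cytometer by GFP-Myc or EYFP fluorescence. The labels do not say which reporter served for which library. The populations Low, Medium and High had 3 biological replicates each. Values are normalised read counts as the authors deposited them, near CPM in scale (reads scaled by library depth), and all 9 libraries entered a single limma fit.

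DNA replication begins when the origin recognition complex marks a start site in G1 and, with Cdc6 and Cdt1, loads the ring-shaped MCM2-7 helicase, a step called licensing that Geminin blocks later in the cycle. Kinases, Cdc45 and the GINS complex then turn MCM2-7 into an active helicase, primase and polymerases alpha, delta and epsilon copy the strands, and the clamp PCNA, placed by the RFC loader, holds polymerases on DNA. Most of these genes are induced at entry into S phase by E2F transcription factors. ES cells cycle fast and spend much of the cycle in S phase. In bulk RNA, a smaller share of cells in S phase and less RNA of a gene per cell cannot be told apart.

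Promoters of several members hold the word that E2F factors bind. The 4 shown here are those in which a word and its flanking bases lay before the RefSeq start and outside annotated exons. They are a gene that was lower in High (Cdc6), 2 helicase genes that did not pass a test (Mcm5, Mcm6) and the catalytic polymerase gene Pola1. Each stretch lies upstream of the RefSeq start on GRCm38.p6, outside annotated exons (for Cdc6 inside the annotated gene, which begins further upstream), and is written 5′ to 3′ on the gene's strand with the E2F words in capitals.
Cdc6, chr11:98907993-98908040 (+): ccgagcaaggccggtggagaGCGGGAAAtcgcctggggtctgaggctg
Mcm5, chr8:75109336-75109387 (+): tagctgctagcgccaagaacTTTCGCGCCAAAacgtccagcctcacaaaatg
Mcm6, chr1:128359784-128359835 (-): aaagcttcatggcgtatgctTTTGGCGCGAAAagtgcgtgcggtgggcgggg
Pola1, chrX:93632266-93632313 (-): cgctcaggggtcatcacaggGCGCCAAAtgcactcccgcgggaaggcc
The words searched were TTTCCCGC, TTTGGCGC, TTTCGCGC and TTTGCCGC on both strands. In Mcm5 and Mcm6 a pair of words on opposite strands overlap. RefSeq promoter windows, from 250 bases before to 50 after a start, were matched for 37 of the 45 members. Of these, 15 (40.5%) held an E2F word in at least 1 window, against 4.84% of the 9765 measured genes with a window (3.96% of their 12540 windows). The word CACGTG, the E-box that Myc with Max binds, was in 7 of the 37 members (18.9%) and in 11.9% of measured genes. CCAAT, the NF-Y box, was in 22 (59.5%) and 43.6%.

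Read depth and labels were checked first. Each library held 11114936 to 16755566 recovered reads, and a member had between 149 (Gins3) and 9426 (Mcm2) reads in a library. Myc itself followed the sort, at 24.2 to 27.6 in the Low libraries, 65.5 to 70.0 in Medium and 101.1 to 112 in High, which checks the labels and is no finding. All 8 ES cell markers looked at, Pou5f1, Sox2 and Nanog among them, were measured, with a summed level of 4010 to 5270 in Low, 4560 to 5120 in Medium and 4760 to 5370 in High. These sums overlap. Of the 8, 4 (Klf4, Esrrb, Zfp42 and Tfcp2l1) were higher in High than in Low, against 13.8% of all genes. The median log2 fold change was 0.32 over the 8. Markers of trophoblast and primitive endoderm moved with the sort. Of the trophoblast markers 8 of 9 were lower in High than in Low, against 14.6% of all genes. Primitive endoderm markers had 3 of 4 higher, against 13.8% of all genes, and 1 lower. Fibroblast markers had 2 of 7 higher (28.6%, against 28.4% of all genes). The summed level of 9 measured of 12 trophoblast markers was 482 to 590 in Low, 227 to 247 in Medium and 137 to 145 in High. For 4 measured of 9 primitive endoderm markers it was 246 to 255 in Low, 396 to 412 in Medium and 491 to 510 in High. For 7 measured of 10 fibroblast and feeder markers it was 97.8 to 109 in Low, 178 to 209 in Medium and 212 to 251 in High, most of it Vim. The 6 neural markers, all measured, had sums of 118 to 126 in Low, 125 to 131 in Medium and 119 to 123 in High, with Sox1 and Pax6 higher and Tubb3 lower in High. None of the markers measured was at 0 in a library, and the 11 not measured, Cdx2, Gata4 and Gata6 among them, were not analysed here. The part of these cells in the results below was not tested.

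As a group the replication genes moved little with Myc level, as shares of each library's reads. Values were scaled by library depth, so a shift shared by all genes would not show. RNA per cell was not measured here. The median log2 fold change for High against Low was 0 over the 45 members and 0 over all genes tested, and the median size of the change, sign left aside, was 0.14 for members and 0.25 for all genes. No member changed 2-fold: log2 fold changes ran from -0.56 (Rfc3) to 0.35 (Pola1), whereas 5.55% of all genes reached 1 in either direction. With adjusted p-values over all 13499 genes (limma, Benjamini-Hochberg), 10 of 45 members (22.2%) passed 0.05, against 28.4% of all genes (13.8% higher in High and 14.6% lower). At an unadjusted p under 0.05 it was 15 members, against 40.5% of all genes. edgeR called 10 members (27.2% of all genes) and DESeq2 12 (28.7%). Of the 10 called by limma, Orc2, Orc5, Mcm10, Pold1, Pold2 and Rpa1 were higher in High, and Orc6, Cdc6, Cdc45 and Rfc3 were lower. High and Low libraries did not overlap for 19 members (42.2%, against 41.6% of all genes), 11 of them higher in High (20.2% of all genes) and 8 lower (21.4%). The Medium mean lay between those of Low and High also for 19 members (42.2%), against 55.2% of all genes. These shares of members lie near or under those of all genes. The set of all genes was not matched to members in read level. Members also varied less within populations, with a median coefficient of variation (SD over mean) of 9.32% in Low against 15.1%.

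**Figure D1:**
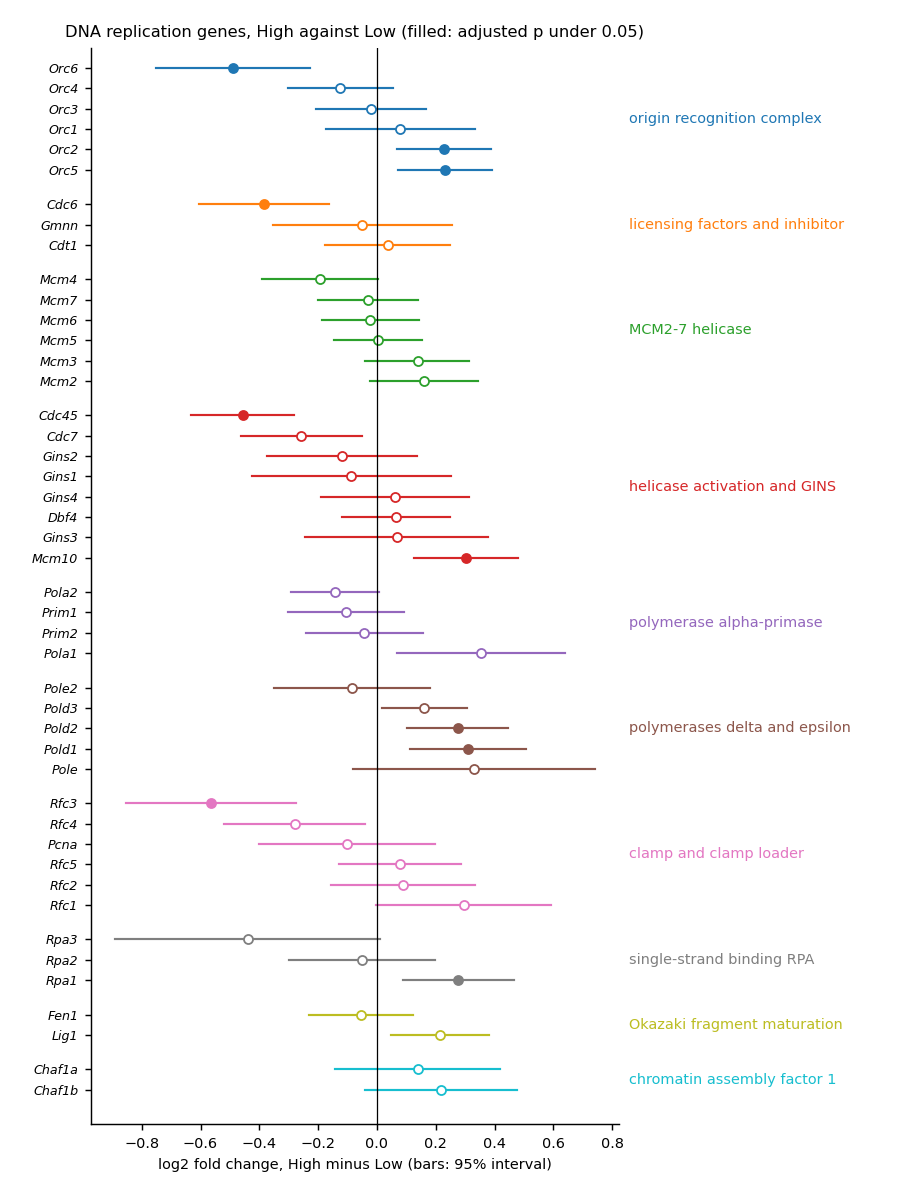
Log2 fold change of each of the 45 members, High minus Low, with its 95% interval, grouped by role; filled points passed an adjusted p of 0.05. The 10 filled points fall on both sides of 0, 6 above and 4 below, and none of the 6 MCM2-7 genes is filled.

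The calls depended on single libraries and on scaling. Without High replicate 2, High replicate 3 or Low replicate 3 none of the 6 higher genes passed, while 3, 3 and 2 of the lower genes did. Calls over all genes fell too, to 18.6%, 19.4% and 17.4%. Without High replicate 1 only Pold2 of the 6 passed (18.9% of all genes). Cdc45 and Rfc3 passed in each of 26 alternative settings, with adjusted p up to 0.0159 and 0.0434. Without Low replicate 1 the count rose to 17, 11 higher and 6 lower (43.3% of all genes). When column totals were made equal, 1 was higher (Pold2) and 5 were lower (27.4% of all genes), and with quantile normalisation 0 were higher and 7 lower (26.6%). Equal totals moved the median of all genes by -0.032 and took the members' median from 0.004 to -0.028. Quantile normalisation moved the median of all genes by -0.015 only, but took that of the members to -0.079, with Orc2 at 0.13, Pold1 at 0.18 and Mcm4 at -0.32. With same-numbered replicates paired (replicate block), 17 members passed, 10 higher and 7 lower (37.8%, against 38.8% of all genes). Pola1, Rfc1, Lig1 and Chaf1b joined the higher genes and Cdc7, Rfc4 and Rpa3 the lower. This block covered all 9 libraries, Medium among them, although replicate 3 of Medium did not meet the mark of pairing given under processing.

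Transcript length moved with these values. Across the 45 members the log2 fold change for High against Low had a Spearman correlation of 0.48 with the length of the longest annotated transcript (0.2 over all genes); members share libraries, so this is a description. Within the Low population, members' deviations from the Low mean correlated with length at 0.75 in replicate 1, -0.72 in replicate 2 and -0.26 in replicate 3. Of the 23 members at or under the median length of 3089 nt, 1 was higher and 3 were lower. Of the 22 longer members 5 were higher and 1 was lower. Over all genes of any length 13.8% were higher and 14.6% lower, and shares by length were not worked out. After a correction for transcript length 17 members passed, 9 higher and 8 lower (37.7% of all genes). All 10 called members kept their direction and their call.

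**Figure D2:**
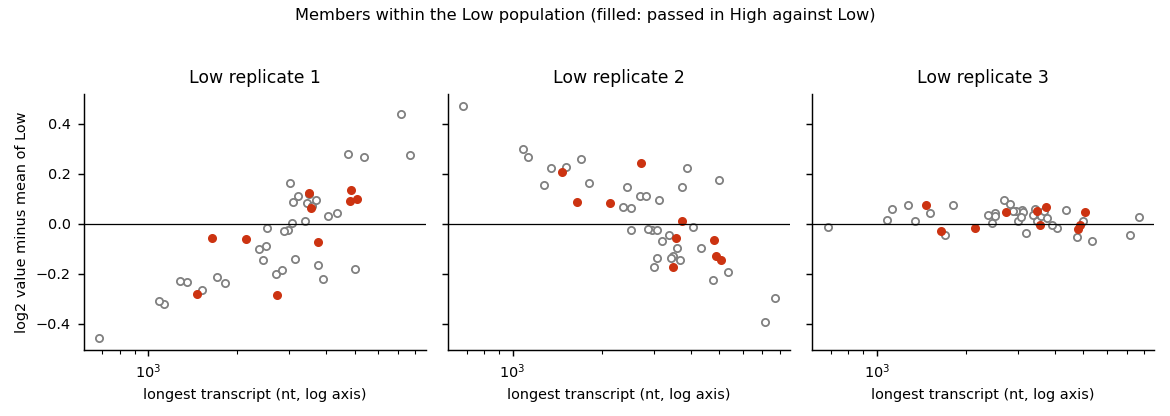
Each member's log2 value in a Low library minus its mean over the 3 Low libraries, against the length of its longest transcript in nt (log axis); filled points passed in High against Low. Short transcripts sit low in replicate 1 and high in replicate 2, and replicate 3 was the highest of the 3 for 7 members and the lowest for 1.

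The heat map of all members by library shows the same contrast inside Low, with Rpa3, Pole and Rfc3 furthest from their means in Low replicate 2. The median coefficient of variation of members was 9.32% in Low, 4.92% in Medium and 4.44% in High, against 15.1%, 10.1% and 9.21% over all genes. It was greatest for Rpa3 in Low (32.5%) and least for Mcm3 in High (0.832%).

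**Figure D3:**
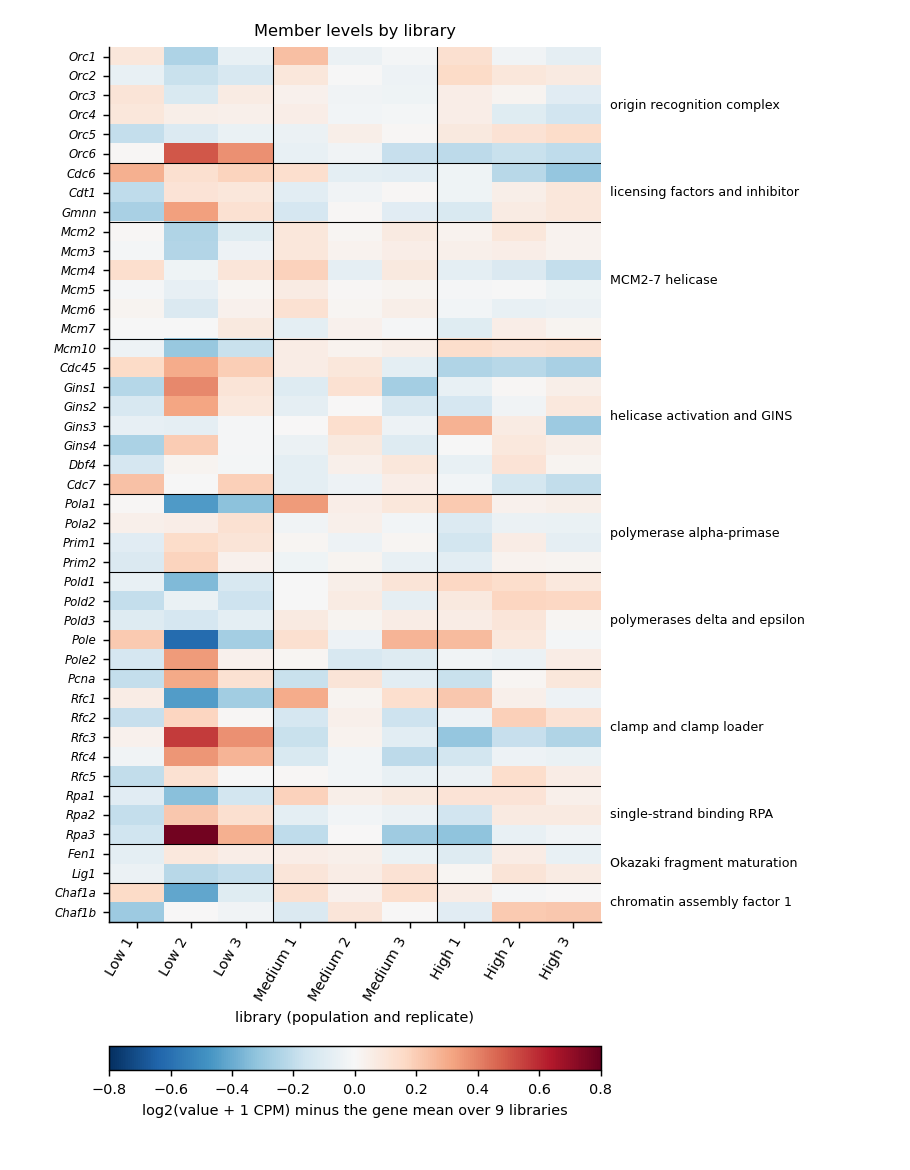
Each row is a member and each column a library; colour is log2(value + 1 CPM) minus the gene's mean over the 9 libraries. Orc6, Rfc3, Rpa3 and Cdc45 are above their means in Low replicates 2 and 3, and no role group is of 1 colour in High.

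Of the 6 subunits of the origin recognition complex, which marks origins for licensing, 2 were higher in High and 1 was lower. Over all genes 13.8% were higher and 14.6% lower. Orc6, the smallest subunit and the least tightly bound, was lower in High, Orc2 and Orc5 were higher, and Orc1, Orc3 and Orc4 did not pass. Orc6 read 92.0, 129 and 118 in the Low replicates 1 to 3, 87.7, 89.5 and 80.6 in Medium, and 78.8, 80.6 and 79.2 in High. Every High library lay below every Low library, but Low replicate 1 was closer to Medium than to the other Low libraries. The mean fell from 113 ± 19.2 (SD, n = 3) to 79.5 ± 0.959, a log2 fold change of -0.49 (SE 0.12, adjusted p = 0.0125, limma), and the call was lost without Low replicate 3 (adjusted p = 0.0557). Orc2 read 119.6, 109.8 and 114 in Low, 133, 125 and 121 in Medium, and 139, 133 and 131 in High. High and Medium both lay above Low, and Medium replicate 1 fell within the range of High. The log2 fold change for High against Low was 0.23 (SE 0.07, adjusted p = 0.0404). Orc5, an ATP-binding subunit, was at 62.0, 65.7 and 68.3 in Low, 68.8, 73.4 and 71.4 in Medium, and 75.1, 76.9 and 78.5 in High. Its log2 fold change was 0.23 (SE 0.07, adjusted p = 0.0376). The calls for Orc2 and Orc5 were lost in 7 and 8 of the 9 fits that left out 1 library, with adjusted p up to 0.131 and 0.121. Orc1, the ATPase subunit whose RNA is cell-cycle regulated in many cells, was at 93.0, 73.3 and 83.6 in Low and 95.3, 85.5 and 82.8 in High, which overlap. Its log2 fold change was 0.08, with a 95% interval from -0.17 to 0.33, and those of Orc3 and Orc4 were -0.02 and -0.12.

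Of the licensing factors, Cdc6 was lower in High and Cdt1 and its inhibitor Geminin (Gmnn) did not pass. Cdc6, the ATPase that joins the origin complex to load MCM2-7, read 94.0, 84.2 and 86.9 in Low, 84.3, 72.6 and 72.5 in Medium, and 75.1, 65.9 and 61.8 in High. Replicate 1 was the highest of its population each time, and High did not overlap Low. The log2 fold change was -0.38 (SE 0.1, adjusted p = 0.0176), and the call was lost without Low replicate 3 (0.0541), High replicate 2 (0.0637) or High replicate 3 (0.0733). Cdt1, which delivers MCM2-7 to the origin, stood at 171, 212 and 210.3 in Low and at 192, 204 and 209.8 in High. The 2 populations overlap, and the log2 fold change was 0.04 with a 95% interval from -0.18 to 0.25. Gmnn was at 85.0, 128 and 111 in Low and 93.8, 107 and 109 in High, also overlapping, with a log2 fold change of -0.05 and an interval from -0.35 to 0.26. The ratio of Cdt1 to Gmnn counts was 2.01, 1.66 and 1.9 in the Low libraries, 2.01, 1.88 and 2.07 in Medium and 2.05, 1.91 and 1.93 in High. Low replicate 2 was the 1 library under 1.88.

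The MCM2-7 helicase is the motor that unwinds DNA. None of its 6 genes passed in any of the 3 comparisons, against 28.4% of all genes for High against Low (limma, and edgeR and DESeq2 also called 0). At an unadjusted p under 0.05 for High against Low it was 0 of 6, against 40.5% of all genes. Log2 fold changes ran from -0.19 (Mcm4) to 0.16 (Mcm2), and all 6 of the 95% intervals lay between -0.39 and 0.34. Mcm2 was at 539, 454 and 500.3 in Low, 572, 543 and 563 in Medium, and 547, 572 and 546 in High, so that High lay above Low by a narrow margin. Mcm3 was at 418, 359 and 411 in Low and 434, 438 and 431 in High, also without overlap. Mcm4 went the other way, at 279, 248 and 271 in Low and 240.1, 234 and 222 in High. For these 3 genes the populations did not overlap although no test passed (adjusted p = 0.175, 0.221 and 0.127). Mcm2 passed without Low replicate 1 (adjusted p = 0.0383, limma). Leaving out Low replicate 2 instead gave Mcm2 a log2 fold change of 0.1 and no call (adjusted p = 0.429, limma). Mcm4 passed with quantile normalisation (adjusted p = 0.0203, limma) and once corrected for length (0.0379). Mcm5, Mcm6 and Mcm7 had log2 fold changes of 0, -0.02 and -0.03. Mcm5 was at 416, 400.2 and 423 in Low and 417, 417 and 409.5 in High. Mcm6 ran from 356 to 396 in Low and from 371 to 379.9 in High, and Mcm7 from 479 to 505 in Low and from 448 to 496 in High.

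The genes that convert MCM2-7 into a running helicase differed among themselves. Cdc45, which binds MCM2-7 and GINS in the active helicase, was lower in High, and Mcm10, which helps to activate it, was higher. Cdc45 read 67.4, 74.5 and 69.6 in Low, 63.1, 64.6 and 57.3 in Medium, and 51.1, 51.8 and 50.3 in High. All 3 Medium libraries lay between the Low and High libraries, with no overlap on either side. The mean was 1.38-fold higher in Low than in High (70.5 ± 3.64 and 51.1 ± 0.774, SD, n = 3), a log2 fold change of -0.46 (SE 0.08, adjusted p = 0.00243). It was the smallest adjusted p of the 45. Mcm10 read 167, 138 and 151 in Low, 178, 174 and 176 in Medium, and 189, 186 and 187 in High. Its Medium libraries also lay between, and the log2 fold change was 0.3 (SE 0.08, adjusted p = 0.0191). The call was lost without Low replicate 3 (0.0674) or any of the High replicates (0.0596 to 0.0619). The 4 GINS subunits, partners of Cdc45 in the same complex, had log2 fold changes of -0.12 (Gins2) to 0.07 (Gins3) and overlapping libraries. Gins1 was at 34.4, 52.9 and 43.4 in Low and 38.7, 40.5 and 41.8 in High, so its spread in Low exceeded the shift between means. Cdc7, the kinase that phosphorylates MCM proteins, was at 53.1, 44.7 and 51.3 in Low and 44.2, 40.6 and 39.1 in High, without overlap but also without a call (log2 fold change of -0.26, adjusted p = 0.0619). Cdc7 passed with the block (0.0383), after the correction for length (0.0153), without Low replicate 2 (0.0269) and with quantile normalisation (0.031). It did not pass without Low replicate 3 (adjusted p = 0.182, limma) or High replicate 3 (0.185). Its activator Dbf4 was at 254 to 282 in Low and 267 to 299 in High, with a log2 fold change of 0.06.

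**Figure D4:**
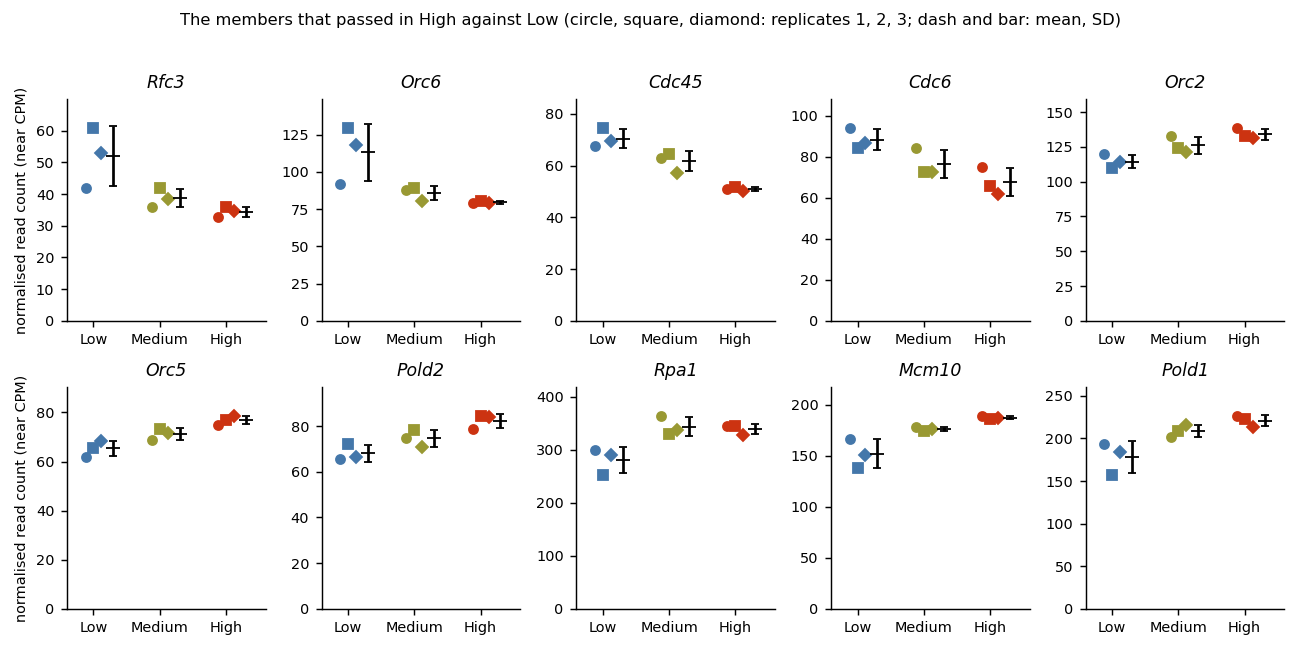
Normalised read counts of the 10 members that passed for High against Low, in each library (points) with the mean and SD of each population (dash and bar), all axes from 0. For Cdc45 the Medium points, 57.3 to 64.6, lie between those of Low and High, and in Orc6 and Rfc3 Low replicate 1 sits below the other 2 Low points.

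Of the 5 genes of polymerases delta and epsilon 2 were higher in High, against 13.8% of all genes. Both calls fell on polymerase delta, which with PCNA copies the lagging strand. Its catalytic subunit Pold1 was at 194, 157 and 184 in Low, 202, 208 and 216 in Medium, and 226, 222 and 213 in High. All the High libraries exceeded all the Low ones, and the log2 fold change was 0.31 (SE 0.09, adjusted p = 0.0262). The accessory subunit Pold2 was at 65.4, 72.1 and 66.6 in Low, 74.6, 78.3 and 70.9 in Medium, and 78.9, 84.4 and 84.0 in High. It also showed no overlap, with a log2 fold change of 0.27 (SE 0.08, adjusted p = 0.0247). The accessory subunit Pold3 followed at 116, 113 and 118 in Low and 129.5, 133 and 126 in High (0.16, adjusted p = 0.0923), without overlap, and passed after the length correction (0.0265) and by DESeq2 (0.0498). The call for Pold1 was lost without Low replicate 2 or 3 or any High replicate (0.0588 to 0.0858), and that for Pold2 without Low replicate 3 (0.0924) or High replicate 2 (0.0898) or 3 (0.0861). Pold3 had an adjusted p of 0.248 without High replicate 2 and 0.543 with quantile normalisation (limma). Pold4, a further delta subunit outside the 45, had 25 to 45 reads a library and a log2 fold change of -0.3 (adjusted p = 0.207, limma). High and Low libraries of Pold4 overlapped. Polymerase epsilon, the leading-strand enzyme, gave no call. Its catalytic gene Pole varied most, at 176, 98.4 and 126 in Low and 181, 161 and 149.6 in High (log2 fold change of 0.33, interval from -0.08 to 0.74), and passed without Low replicate 1 (0.55, adjusted p = 0.00665). The value was 0.13 without Low replicate 2 and 0.14 after the length correction (adjusted p = 0.219). Pole2 had -0.09.

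Polymerase alpha and primase, which lay down the primers, had 0 of 4 members past the test, against 28.4% of all genes (limma). The tools edgeR and DESeq2 also called 0. At an unadjusted p under 0.05 there was 1 member, against 40.5% of all genes. That was the catalytic gene Pola1, at 94.8, 68.6 and 74.8 in Low, 119, 97.9 and 100.4 in Medium, and 109, 96.5 and 97.2 in High. Low was below High without overlap, by the largest upward change of the 45 (0.35, SE 0.13, adjusted p = 0.0649), and Pola1 passed with the block (0.00481), without Low replicate 1 (0.00406) and after the length correction (0.0188). For Pola1 the log2 fold change was 0.26 without Low replicate 2 (adjusted p = 0.181, limma), and quantile normalisation gave an adjusted p of 0.149. Pola2, Prim1 and Prim2 had log2 fold changes of -0.14, -0.11 and -0.04. Pola2, the regulatory subunit, was at 114 to 120.3 in Low and 102 to 107 in High, without overlap; it passed, as lower, with quantile normalisation (0.0245).

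Of the clamp and its loader, 1 of 6 genes passed, against 28.4% of all genes. That was Rfc3, which was lower in High. Pcna, the ring that tethers polymerases to DNA, was at 382, 538 and 474 in Low, 386, 469 and 411 in Medium, and 385, 441 and 465 in High. The populations overlap throughout, and replicate 1 was lowest in each; the log2 fold change was -0.1 with an interval from -0.4 to 0.2. Of the loader subunits, Rfc3 had the lowest fold change of all 45 members. It was at 41.9, 60.8 and 53.0 in Low, 36.0, 41.8 and 38.6 in Medium, and 32.7, 35.9 and 34.5 in High. High and Low did not overlap, and the mean was 1.51-fold higher in Low (log2 fold change of -0.56, SE 0.13, adjusted p = 0.01). Rfc4, a small subunit like Rfc3, was at 50.2, 65.6 and 62.1 in Low and 46.2, 49.7 and 49.2 in High without overlap (-0.28, adjusted p = 0.0794). Rfc4 passed when paired by replicate (0.0318), with equal totals (0.0346), without Low replicate 1 (0.00463) and after the length correction (0.037). It did not pass without Low replicate 2 (adjusted p = 0.215, limma) or with quantile normalisation (0.0545). Rfc1, the large subunit, had 0.3 (interval from -0.004 to 0.59), and passed with the block (0.0162) and without Low replicate 1 (0.00843). Without Low replicate 2 its log2 fold change was 0.18 (adjusted p = 0.347, limma). Rfc2 and Rfc5 had 0.09 and 0.08.

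RPA coats single-stranded DNA at the fork as a complex of a large, a middle and a small subunit. The large subunit Rpa1 was at 300.0, 253 and 289 in Low, 363, 330.0 and 337 in Medium, and 345, 345 and 328 in High. Medium and High both lay above Low, and the log2 fold change for High against Low was 0.28 (SE 0.09, adjusted p = 0.0355). The call was lost in 7 of the 9 fits that left out 1 library, with adjusted p up to 0.11. Rpa2 had -0.05, and Rpa3, on the shortest transcript of the 45 (682 nt), was at 44.4, 85.3 and 60.7 in Low and 39.3, 47.4 and 48.5 in High. Low replicate 1 fell within the range of High, and Rpa3 did not pass (-0.44, interval from -0.89 to 0.01); it passed with the block (0.0339), without Low replicate 1 (0.00577) and after the length correction (0.00725). Without Low replicate 2 the value was -0.2.

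The genes that finish and package new strands gave no call for High against Low. Fen1, the flap nuclease, and Lig1, the ligase that seals Okazaki fragments, had log2 fold changes of -0.05 and 0.22. Lig1 was at 268, 237 and 243 in Low, 296, 289 and 299.7 in Medium, and 279.8, 298 and 289 in High, above Low without overlap (adjusted p = 0.0556); it passed with the block (0.0387), after the length correction (0.0181), by DESeq2 (0.0185) and without Low replicate 1 (0.00962). Lig1 did not pass without Low replicate 2 (adjusted p = 0.134, limma), with equal totals (0.139) or with quantile normalisation (0.371). Chaf1a and Chaf1b, subunits of the factor that places histones behind the fork, had log2 fold changes of 0.14 and 0.22. Their High and Low libraries overlapped. Chaf1b passed with the replicate block (0.0251), but had a log2 fold change of 0.12 without Low replicate 1 (adjusted p = 0.363, limma). Chaf1a passed without Low replicate 1 (0.28, adjusted p = 0.0407), and its sign turned without Low replicate 2 (-0.01) and after the length correction (-0.07).

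Fewer calls were made for the steps between neighbouring populations. The median size of the change over the members was 0.14 for Medium against Low, as for High against Low, and 0.07 for High against Medium. Between High and Medium 0 of 45 members passed, against 0.407% of all genes, with 1 member (Cdc45) at an unadjusted p under 0.05, against 10.9% of all genes (limma; edgeR and DESeq2 called 0). After the correction for length Cdc45 passed (adjusted p = 0.0433, log2 fold change of -0.3), with 2.29% of all genes. Between Medium and Low 0 of 45 passed, against 12% of all genes, although 12 members had an unadjusted p under 0.05, against 31.3% of all genes. edgeR called 0 there and DESeq2 called 5 (14.9% of all genes): Rpa1, Lig1 and Pola1 higher in Medium and Orc6 and Rfc3 lower. Without Low replicate 1 limma called 14 members (38.0% of all genes). These comparisons share libraries with High against Low. The values side by side show Rpa1 at 0.29 for Medium against Low and -0.02 for High against Medium, Lig1 at 0.25 and -0.03, Pola1 at 0.42 and -0.07, Cdc45 at -0.19 and -0.27, and Cdc6 at -0.21 and -0.18. The test of whether Medium departed from the mean of Low and High called 0 of 45 members and 0.0% of all genes (limma; edgeR and DESeq2 called 0 members), so it separates no gene from the others. At an unadjusted p under 0.05 it had 0 members, against 5.67% of all genes. Without Low replicate 1 it had 12 members at that level and 0 after adjustment. The share of all genes at that level was not worked out for this fit, so the 12 cannot be set against it.

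Levels compared between genes are normalised counts per kb of the longest annotated transcript, and they set subunits of 1 complex apart more than Myc level did. In High, Pcna was the most abundant at 283.5 per kb and Gins3 the least at 6.06 per kb. MCM2-7 genes ran from 64.6 (Mcm4) to 161 per kb (Mcm7). Cdc45 was at 23.8 and Mcm10 at 38.4 per kb, and GINS subunits from 6.06 to 49.3 (Gins4). Origin recognition subunits ran from 10.8 (Orc4) to 54.3 per kb (Orc6). Of the kinase pair, Dbf4 was at 113 and Cdc7 at 11.2 per kb. The annotated longest transcript may not be the one in use in these cells, so these levels are approximate.

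**Figure D5:**
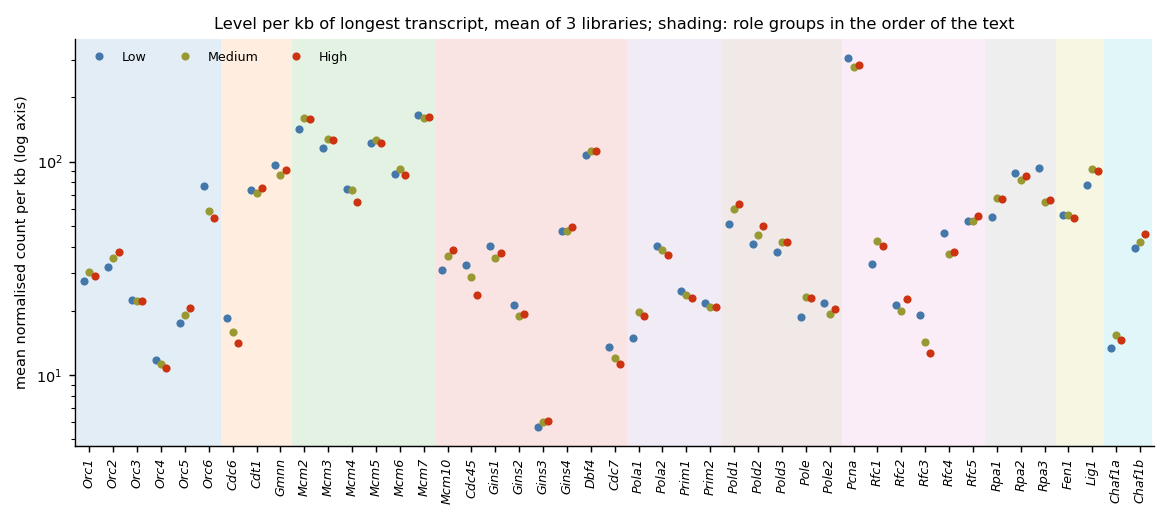
Mean normalised count per kb of longest transcript (log axis) of each member in Low, Medium and High, 3 libraries each; shading marks the role groups. Pcna is the highest and Gins3 the lowest, and the 3 colours of a gene lie close together compared with the distance between genes.

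Calls are given here for members with and without an E2F word, and the difference between these sets was not tested. Only exact matches to the words searched were counted, so a window without a word may still hold a near match. Of the 15 members with a word 1 was higher (Pold1, against 13.8% of all genes) and 2 were lower (Cdc6 and Rfc3, against 14.6%), with a median log2 fold change of 0.04. Of the 22 without 5 were higher and 2 lower, with a median of 0.01. Cdc45 and Orc6 are among those without a word in their windows, and Mcm5 and Mcm6, shown above, had the words and log2 fold changes of 0 and -0.02.

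Other genes of the pathway were read from lists of known genes. Of 35 further fork and origin-firing genes, 4 were higher and 4 lower in High (22.9%, against 28.4% of all genes), with a median log2 fold change of -0.02. Ticrr (Treslin), which loads Cdc45 at origins, rose by 0.7 on the log2 scale (120.1 ± 26.8 to 193 ± 2.58, SD, n = 3, adjusted p = 0.00518). Top2a, a topoisomerase, rose by 0.54 with an adjusted p close to the threshold (0.0485, limma). It was at 682, 409.6 and 500.4 in Low and 863.6, 718 and 693 in High. Uhrf1, which guides maintenance DNA methylation at the fork, rose by 0.39 (adjusted p = 0.0133, limma). 2810417H13Rik, the gene of the PCNA-binding protein PAF15, fell from 109 ± 11.9 to 51.8 ± 3.55 (log2 fold change of -1.05, adjusted p = 7.3e-05), more than any of the 45. Top1 and Rnaseh2b fell by 0.46 and 0.45 on that scale. Of 17 E2F, pocket protein and S-phase cyclin genes, 3 were higher and 4 lower (41.2%, against 28.4% of all genes). E2f2, Cdk2 and E2f4 rose by 0.72, 0.31 and 0.27. Rb1, the retinoblastoma protein that holds E2F in check, fell from 22.2 ± 1.01 to 8.65 ± 0.973 (-1.27, adjusted p = 8.1e-05), and Ccne2 and E2f5 fell by 0.63 each. Of 9 nucleotide supply genes 0 were higher and 2 lower (22.2%, against 28.4% of all genes). Rrm2, a subunit of ribonucleotide reductase, fell from 539 ± 29.96 to 376.5 ± 15.0 (-0.52, adjusted p = 0.00138), and Dck by 0.27. Of 20 G2 and mitosis genes 2 were higher (Bub1b and Aurkb, by 0.38 and 0.25) and 1 lower (Ccnb2, by 0.38 on the log2 scale), 15% against 28.4% of all genes, with a median of 0.1.

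Coordinates of the 10 called members, from GENCODE M21 on GRCm38 matched by Ensembl identifier, are as follows. Orc2 lies on chromosome 1 from 58462771 to 58505109, Orc5 on chromosome 5 from 22486485 to 22550429, and Orc6 on chromosome 8 from 85299632 to 85308278. Cdc6 lies on chromosome 11 from 98907801 to 98923940, Mcm10 on chromosome 2 from 4989714 to 5012791, and Cdc45 on chromosome 16 from 18780447 to 18811987. Pold1 lies on chromosome 7 from 44532746 to 44548849, Pold2 on chromosome 11 from 5872180 to 5878292, Rfc3 on chromosome 5 from 151642756 to 151651242, and Rpa1 on chromosome 11 from 75298166 to 75348324. They are on 7 chromosomes.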

How the data were processed

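The authors deposited a table of gene signal per library, whole read counts scaled to near CPM; column totals ran from 953055 to 1026948. Per the submitters' processing notes, the tools cutadapt, Picard, RSEM 1.17 and limma were used, with no role or order. Reads were single-end and 61 nt, per the labels' protocols. Genome build, annotation and strand use: not given in the sources used here. In each library 100% of values were whole multiples of 1 read within 0.001.

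Tests used limma 3.58.1 in R 4.3.3 on log2(signal + 1 CPM), a trended prior variance, all 9 libraries, population as the only term, and Benjamini-Hochberg over 13499 genes, all of which reached 1 CPM in at least 3 libraries. Fold changes on this scale understate those of low genes. Members, lists and tests were chosen with earlier results of these data known. Every member was accounted for; those that passed, and Orc1, Cdc6, Cdt1, Gmnn, Pcna and Mcm2 to Mcm7, were to be named, with the extremes of each role group and up to 3 genes each way of other lists. Others named with library values were chosen after their values were seen.

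For High and Low, deviations of same-numbered libraries correlated at 0.53, 0.26 and 0.18, above the 0.1 set as the mark of pairing, so a replicate block was fitted; some differently numbered pairs also exceeded it (0.31 and 0.12). Replicate 3 fell under the mark for High and Medium (-0.04) and for Medium and Low (-0.11), so for those comparisons the numbers were not taken as pairs. Alternatives used edgeR 4.0.16 and DESeq2 1.42.0 on recovered reads, among others. The script was tested on simulated data.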

Additional observations from a re-analysis of the deposited data

How the results depend on the processing

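The 10 calls for High against Low, 6 higher and 4 lower, were the same in number with other pseudocounts, low-value filters, TMM scaling and edgeR; DESeq2 gave 12 (8 and 4). Counts given as total (higher and lower) were 6 (1 and 5) with equal totals, 7 (0 and 7) with quantile normalisation, 7 (3 and 4) without a variance trend, 4 (0 and 4) with only the 2 populations compared, 17 (10 and 7) with the replicate block, 17 (9 and 8) with the transcript length correction, 20 (12 and 8) with both, and 6 (2 and 4) without Low replicates 1 and 2 together. Sample weights gave 26 (14 and 12), but their estimate did not converge and gave Low replicate 3 a weight of 310; weights estimated gene by gene, added after seeing the data, gave 23 (13 and 10). Leaving out 1 library gave 2 to 17, with 0 to 11 higher and 2 to 6 lower. The extremes were without Low replicate 3 (2) and without Low replicate 1 (17). Over all genes the share called was 67.6% and 58.2% with these weights, 44.2% with block and length together, 22.1% with only the 2 populations, 27.5% without a variance trend and 23.5% without Low replicates 1 and 2, against 28.4% in the reported fit. For High against Medium, sample weights, the length correction and its combination with the block gave 1 (0 and 1) each. The shares of all genes there were 8.0%, 2.29% and 3.61%. For Medium against Low, the count of 0 became 1 (1 and 0) with the 5 CPM filter, 1 (0 and 1) with quantile normalisation or equal totals, 5 (3 and 2) by DESeq2, 8 (5 and 3) with the length correction, 10 (5 and 5) with the block, 10 (6 and 4) with both, 27 (13 and 14) and 22 (10 and 12) with the sample weights, and 4 (1 and 3) without Low replicates 1 and 2; leaving out 1 library gave 0 to 14, with 0 to 9 higher and 0 to 5 lower. For Medium against Low the shares of all genes were 12.9% with the filter, 11.4% with quantile normalisation, 10.7% with equal totals, 19.8% with the length correction, 27.1% with the block, 27.8% with both, 65.1% and 52.2% with the weights and 11.8% without the 2 Low libraries. Replicate numbers did not meet the pairing mark there. The departure of Medium gave 9 and 3 with the sample weights, where the share of all genes was not worked out. The cause was not tested. No called member changed sign in any setting. Of 1170 pairs of a member and an alternative for High against Low, 1036 kept their side of the threshold, 64 lost a call and 70 gained it; 46 pairs over 18 members that passed in neither changed sign. A member had at least 149 reads in every library.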
